A study of Mus musculus with 2 samples.

Results

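The miR-130 and miR-301 family was followed in the stomach of newborn mice through its 4 genes, Mir130a, Mir130b, Mir301 (the gene of miR-301a) and Mir301b. The genes were chosen by symbol and make up 4 of the 1973 miRNA genes in the tables. The data are 2 microRNA-seq libraries, which read RNA shorter than 30 nucleotides, each from the whole stomach of a different B6NCrl pup of 1 dam at postnatal day 0. The labels record no treatment or engineered allele, and sex was not collected. The libraries form 1 group, so the comparisons are among genes and between the pups, with no contrast between conditions. All 4 genes were detected, meaning at least 10 counts in each library, and together they held 1.83% ± 0.152 (SD, n = 2) of the counts. Mir130a supplied most of these.

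A miRNA gene is transcribed into a precursor that folds into a hairpin, from whose 5p or 3p arm a mature strand is cut and loaded into an Argonaute protein. Bases 2 to 8 of the mature strand, the seed, pair with messenger RNAs and lower their translation or stability, so miRNAs with a common seed form a family with overlapping targets. miR-130 miRNAs are known for repressing PPARG, the main regulator of fat cell differentiation, in human preadipocytes, and miR-130a is known for repressing the antiangiogenic homeobox genes GAX and HOXA5 in human endothelial cells. miR-301a is encoded within the gene of SKA2, a protein of the spindle and kinetochore.

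The sequences show how the members are related. RefSeq (GRCm38.p6) held the hairpin of each of the 4 genes and 7 of their mature miRNAs. Each hairpin contains the 8 bases CAGUGCAA on its 3p arm, and 7 of these form the family seed. Below, the hairpins are given 5′ to 3′ with these 8 bases in capitals.
Mir130a hairpin: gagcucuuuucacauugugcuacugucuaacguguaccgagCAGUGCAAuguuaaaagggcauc
Mir130b hairpin: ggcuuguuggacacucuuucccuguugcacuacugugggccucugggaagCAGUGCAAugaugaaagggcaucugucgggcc
Mir301 hairpin: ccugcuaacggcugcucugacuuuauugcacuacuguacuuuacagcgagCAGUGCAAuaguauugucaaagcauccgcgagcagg
Mir301b hairpin: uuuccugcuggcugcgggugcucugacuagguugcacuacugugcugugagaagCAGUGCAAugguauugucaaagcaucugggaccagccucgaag

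The mature miRNAs of the 3p arm follow, with the seed, AGUGCAA, in capitals.
mmu-miR-130a-3p: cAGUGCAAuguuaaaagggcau
mmu-miR-130b-3p: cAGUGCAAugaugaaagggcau
mmu-miR-301a-3p: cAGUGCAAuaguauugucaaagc

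The mature miRNAs of the 5p arm have 3 seeds, CUCUUUU for miR-130a-5p, CUCUUUC for miR-130b-5p, and CUCUGAC, which miR-301a-5p and miR-301b-5p have in common. Counts are given per gene, so the 5p and 3p arms cannot be told apart in them.
mmu-miR-130a-5p: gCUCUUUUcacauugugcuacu
mmu-miR-130b-5p: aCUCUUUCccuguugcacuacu
mmu-miR-301a-5p: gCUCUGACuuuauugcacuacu
mmu-miR-301b-5p: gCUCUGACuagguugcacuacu

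Beyond the seed, the genes form an miR-130 pair and an miR-301 pair. The hairpins were compared over 22 bases, with position 1 at the first base of CAGUGCAA. All 4 were identical through position 9, and 11 of the 22 positions were the same in all. Mir130a and Mir130b differed at 2 positions, U11A and A13G, written with the base of Mir130a first. Mir301 and Mir301b differed at 1 position, A10G, with the base of Mir301 first. Between a miR-130 and a miR-301 gene there were 9 to 11 differences.

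These differences bear on how reads are assigned, since a read that matches several places stays out of the gene counts. No member shared a stretch of 20 nt or more with another annotated hairpin. The longest common stretch was 17 nt for Mir130a, with Mir6389, and 16 nt for each of the others, which for Mir301 and Mir301b was with each other. The mismatches allowed in alignment are not stated in the sources, and reads moving between Mir301 and Mir301b through a mismatch were not tested for.

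The loci are in 3 places. Mir130a (ENSMUSG00000065484.1) lies on the minus strand at chr2:84741115-84741178 (GRCm38), inside no annotated host gene of that strand. It is 990 nt downstream of the protein-coding gene Gm19426 on the same strand. Host genes on the opposite strand were not searched for. Mir301 (ENSMUSG00000065589.1) lies on the plus strand at chr11:87113004-87113089, in an intron of Ska2, 3770 nt from the 5′ end of that gene. Mir130b (ENSMUSG00000065572.1) and Mir301b (ENSMUSG00000076288.1) lie side by side on the minus strand at chr16:17124061-17124142 and chr16:17124400-17124496. They are 257 nt apart, with Mir301b upstream, in an intron of the protein-coding gene 2610318N02Rik. The neighbours on chromosome 16 are thus 1 gene of each sequence pair. No other annotated miRNA gene lay within 10 kb of any member.

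Own-strand counts, those on the gene's annotated strand, summed to 4463355 in pup 1 and 3454655 in pup 2, and levels are given as counts per 1000000 of these (CPM). A gene with no count may stand at up to 0.672 CPM in pup 1 and 0.868 CPM in pup 2 (3 counts), and this limit and every interval here cover counting error only. In all, 305 genes were detected, with a median level of 166 CPM. The tissue label was checked with 11 miRNA genes known for stomach smooth muscle, squamous and glandular epithelium, endocrine cells and endothelium. All 11 were detected, and they held 41.9% of the counts in pup 1 and 40.5% in pup 2. The 2 smooth muscle genes alone held 25.6% and 23.9%. Of 6 genes of liver, pancreatic acini and striated muscle, 3 were detected, and the 6 held 0.0384% and 0.0620%. The 3 were Mir122 at a mean of 230 CPM and Mir206 at 181 CPM, both above the median detected gene, and Mir208b at 88.2 CPM.

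Mir130a was the leading member. It had 65982 counts in pup 1 and 56835 in pup 2, which are 14783 CPM (exact 95% interval 14671 to 14895) and 16452 CPM (16318 to 16586). Its mean of 15617 ± 1180 CPM (SD, n = 2) ranked 15 among the 305 detected genes, 94.3-fold above the median detected gene. It supplied 85.7% of the family's counts in pup 1 and 84.8% in pup 2. In whole tissue, the number of cells that express a miRNA and the amount per cell cannot be told apart.

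Mir130b, the other miR-130 gene, had 8221 counts in pup 1 and 6979 in pup 2. These are 1842 and 2020 CPM, with a mean of 1931 ± 126 CPM and rank 58. It made up 10.7% of the family in pup 1 and 10.4% in pup 2. The miR-130 pair thus held 96.3% of the family's counts in pup 1 and 95.2% in pup 2, with exact 95% intervals of 96.2% to 96.5% and 95.01% to 95.3%.

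Mir301, inside Ska2, had 2701 counts in pup 1 and 3112 in pup 2. It stood at 605 CPM (583 to 628) in pup 1 and 901 CPM (869 to 933) in pup 2, with a mean of 753 ± 209 CPM and rank 93. The pup with fewer own-strand counts in all had more counts of this gene. Its part of the family was 3.51% in pup 1 (3.38% to 3.64%) and 4.64% in pup 2 (4.48% to 4.80%), and these intervals do not overlap.

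Mir301b was the lowest member and the only 1 of the 4 below the median detected gene. It had 115 counts in pup 1 and 121 in pup 2, or 25.8 CPM (21.3 to 30.9) and 35.0 CPM (29.1 to 41.9). Its mean was 30.4 ± 6.55 CPM at rank 220, and it supplied 0.149% of the family in pup 1 and 0.180% in pup 2. No member had a count on the opposite strand in either library.

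**Figure D1:**
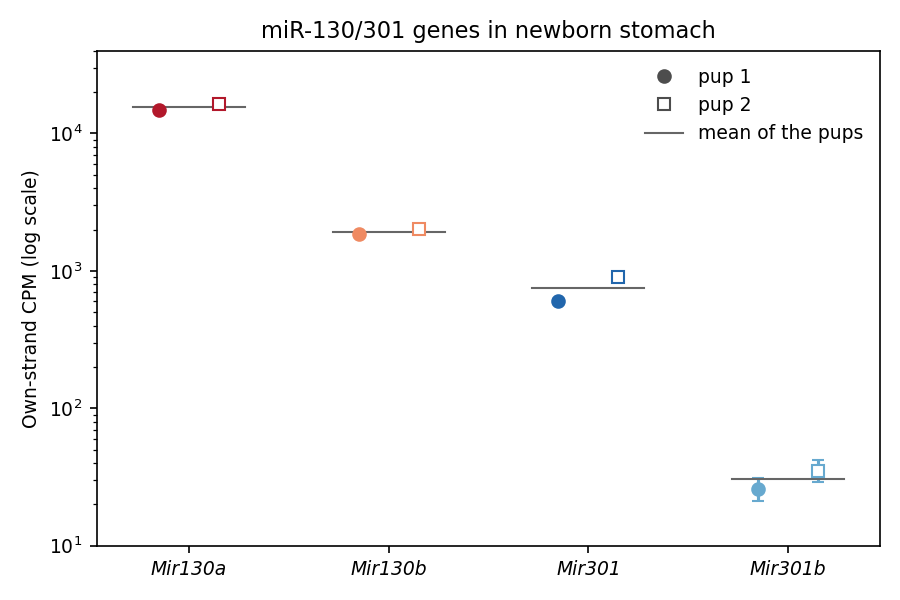
Own-strand counts per 1000000 (CPM, log axis) of the 4 miR-130 and miR-301 genes in the stomachs of pup 1 (filled circles) and pup 2 (open squares). Error bars are exact 95% intervals for counting error and grey lines are means; the order Mir130a, Mir130b, Mir301, Mir301b is the same in both pups, and Mir301 shows the widest gap between them relative to its mean.

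**Figure D2:**
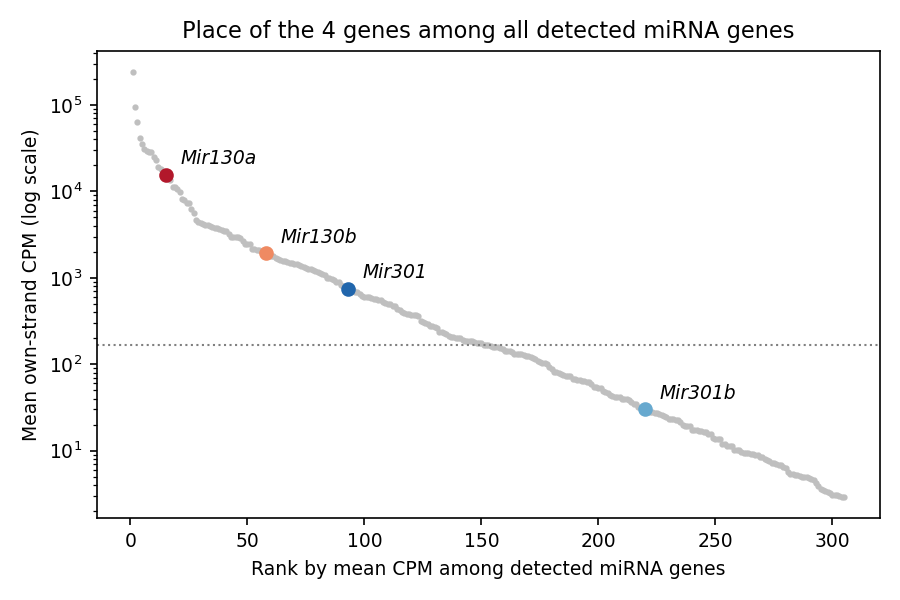
Mean own-strand CPM (log axis) of the 305 detected miRNA genes against their rank, with the 4 members in colour and the median detected gene as a dotted line. Mir130a is at rank 15, Mir130b at 58, Mir301 at 93 and Mir301b at 220, so the family runs from near the top of the distribution to its lower part.

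The order Mir130a, Mir130b, Mir301, Mir301b held in both pups, and each of the 6 log2 ratios between members was larger than its SD. With 2 pups an exact sign-flip permutation test has a smallest possible p of 0.5, so the SD is the measure of error used here. Mir130a exceeded Mir130b 8.03-fold in pup 1 and 8.14-fold in pup 2, a log2 ratio of 3.02 ± 0.015. Mir130a exceeded Mir301 24.4-fold and 18.3-fold, or 4.40 ± 0.297 on the log2 scale. The closest neighbours in the order were Mir130b and Mir301, with a ratio of 3.04-fold in pup 1 and 2.24-fold in pup 2 (log2 ratio 1.39 ± 0.312). Mir301 exceeded Mir301b 23.5-fold and 25.7-fold (log2 ratio 4.62 ± 0.093). From the highest to the lowest member the ratio was 574-fold in pup 1 and 470-fold in pup 2. How completely each miRNA enters a library was not measured, so all ratios between genes here are ratios of counts, not of molecules in the tissue. Reads of a miRNA cover the whole mature strand, so CPM was not divided by length. Per nucleotide of hairpin the means were 244 CPM for Mir130a, 23.5 for Mir130b, 8.76 for Mir301 and 0.313 for Mir301b, in the same order.

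The ratios within the sequence pairs varied less between the pups than those across them. Their SDs on the log2 scale were 0.015 for Mir130a over Mir130b and 0.093 for Mir301 over Mir301b. Across the pairs, the SDs ran from 0.204 for Mir130a over Mir301b to 0.312 for Mir130b over Mir301. The adjacent genes on chromosome 16, Mir130b and Mir301b, had an SD of 0.219. With 2 pups, each SD only restates how far the ratio between the pups differs between its 2 genes. The SDs are therefore not independent of one another. They describe these libraries, and whether the genes of a sequence pair vary together was not tested. The ratios with Mir301b rest on its 115 counts in pup 1 and 121 in pup 2, and their counting error was not set against these SDs.

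On chromosome 16, Mir130b and Mir301b differed widely in counts although 257 nt separate them. Mir130b exceeded Mir301b 71.5-fold in pup 1 and 57.7-fold in pup 2, a log2 ratio of 6.0 ± 0.219 (SD, n = 2). Most of the 98 pairs of adjacent detected miRNA genes on the same strand within 10 kb differed less, with a median log2 ratio of 2.60, or 6.05-fold, of the higher over the lower gene. In 11 of the 98 pairs the ratio was larger than for Mir130b and Mir301b. Of the 57 pairs within 1 kb, 9 had a larger ratio. Of the 61 pairs within 10 kb in which neither gene shares 20 nt with another hairpin, 5 had a larger ratio. This filter does not cover reads that move between Mir301 and Mir301b through a mismatch, which were not tested for. Only detected genes entered, so a pair whose lower gene had fewer than 10 counts in a library is missing. Undetected genes between detected ones were skipped. The counts of pairs with a larger ratio may thus be too low. Adjacent pairs can also have a gene in common, so these counts are a description. The locus on chromosome 16 supplied 10.8% of the family's counts in pup 1 and 10.6% in pup 2.

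**Figure D3:**
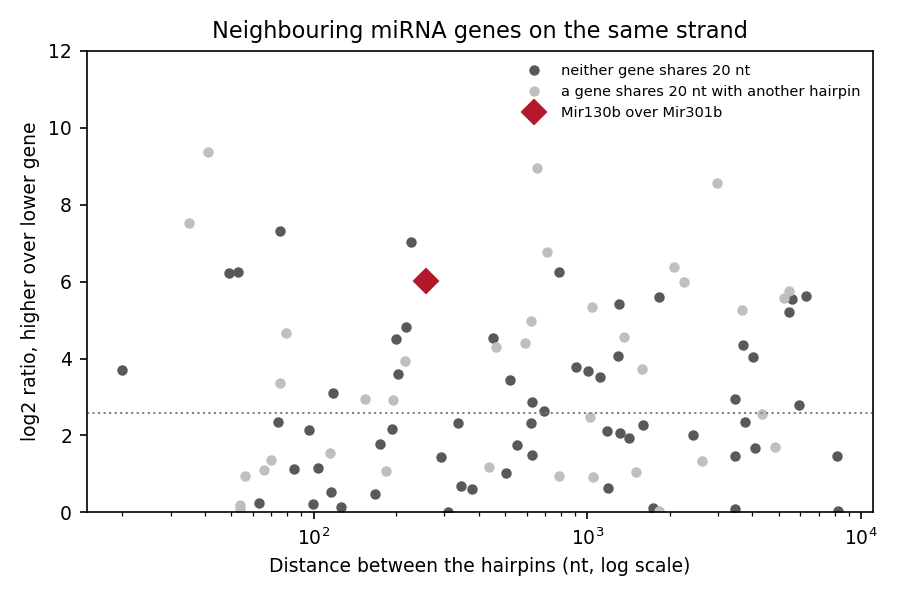
The log2 ratio of the higher over the lower gene (mean of both pups) against the distance between the hairpins (nt, log axis) for 98 adjacent pairs of detected miRNA genes on the same strand. The diamond marks Mir130b over Mir301b, at 6.0 against a median of 2.60 (dotted line), and pale points are pairs in which a gene shares 20 nt or more with another hairpin.

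In the ranking of all detected genes, the genes next to each member all belonged to other families. The nearest genes in the order of mean CPM were Mir205 above and Mir200c below Mir130a, Mir183 above and Mir31 below Mir130b, Mir15b above and Mir483 below Mir301, and Mir129-2 above and Mir30c-1 below Mir301b. Likeness was taken as the distance in mean log2 CPM over the 2 libraries, which was at most 0.124 for all 8. Small distances follow from taking the genes next in rank. Mir130a lay below Mir205 by a log2 difference of -0.10 ± 0.076, and Mir130b lay above Mir31 by 0.05 ± 0.048. The other 6 differences were smaller than their SD, and that of Mir301 and Mir483 changed side with the scale, as Mir301 was above in mean CPM but below by a log2 difference of -0.013 ± 0.277 in mean log2 CPM. Mir301 was the lowest of its 3 in pup 1, at 605 CPM beside 763 CPM for Mir15b and 699 CPM for Mir483. In pup 2 it was the highest, at 901 CPM beside 849 CPM for Mir15b and 793 CPM for Mir483.

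Other miRNA genes carry the same seed. RefSeq lists Mir130c, Mir6341, Mir6389 and Mir721 with mature miRNAs whose seed is AGUGCAA, of which Mir721 was not analysed here.
mmu-miR-130c: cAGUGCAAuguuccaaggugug
mmu-miR-6341: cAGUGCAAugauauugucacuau
mmu-miR-6389: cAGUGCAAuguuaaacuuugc

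Mir130c, Mir6341 and Mir6389 each had 0 counts in both libraries. None of them shares 20 nt with another hairpin. Against the floor of 3 counts per library, Mir301b, the lowest member, was at least 38.3-fold higher in pup 1 and at least 40.3-fold higher in pup 2. Among the other analysed genes whose RefSeq mature miRNA has this seed, none thus had a count. In all, 10 of 2202 annotated hairpins (0.454%) contain CAGUGCAA on the strand of the gene, the basis on which Mir301b is shown with the seed. Besides the genes named, these are Gm25470, with 0 counts in both libraries, and Mir362, with 311 counts in pup 1 and 315 in pup 2. Neither the 5p nor the 3p mature miRNA of Mir362 in RefSeq has this seed. Both genes were named after their values were seen.

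The families of miR-148 and miR-152 and of miR-19 have seeds that overlap this one by a shift of 1 base, which is why they are set beside it. miR-148 and miR-152 have the seed CAGUGCA, and miR-19 has GUGCAAA.
mmu-miR-148a-3p: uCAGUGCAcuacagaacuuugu
mmu-miR-152-3p: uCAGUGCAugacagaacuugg
mmu-miR-19a-3p: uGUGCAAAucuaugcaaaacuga

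The 4 members together stood above both families. All 3 miR-148 and miR-152 genes were detected, with 0.199% ± 0.0276 of own-strand counts. Mir148a led them at 1292 CPM in pup 1 and 1574 CPM in pup 2, below Mir130b in both. Mir148b and Mir152 stood at 278 ± 34.8 and 278 ± 42.2 CPM, between Mir301 and Mir301b. The miR-130 and miR-301 genes exceeded this family 9.25-fold, with a log2 ratio of 3.21 ± 0.081. A setting without Mir130a was added once the data had been seen, with Mir148a, the leading gene of the other family, kept. The other 3 members then exceeded that family 1.38-fold in pup 1 and 1.35-fold in pup 2, so the size of the difference rests on Mir130a. The families without both leading genes were not compared.

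The miR-19 genes, members of the miR-17-92 cluster and of its relative on chromosome X, were far lower. Mir19a had 88 counts in pup 1 and 81 in pup 2, Mir19b-1 had 26 and 16, and Mir19b-2 had 2 and 3, so 2 of 3 were detected. The miR-130 and miR-301 genes exceeded their sum by a log2 ratio of 9.38 ± 0.010. Mir19b-1 and Mir19b-2 share 20 nt or more with another hairpin, so their reads can be missing from the gene counts. Mir19a shares no such stretch, but it was also far below its neighbours in the cluster. Mir18, 53 nt away, exceeded Mir19a by a log2 ratio of 6.25 ± 0.242, and Mir20a, 75 nt away, by 7.31 ± 0.083. Both neighbours were named after their values were seen, and the reason for the low count of Mir19a was not tested.

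**Figure D4:**
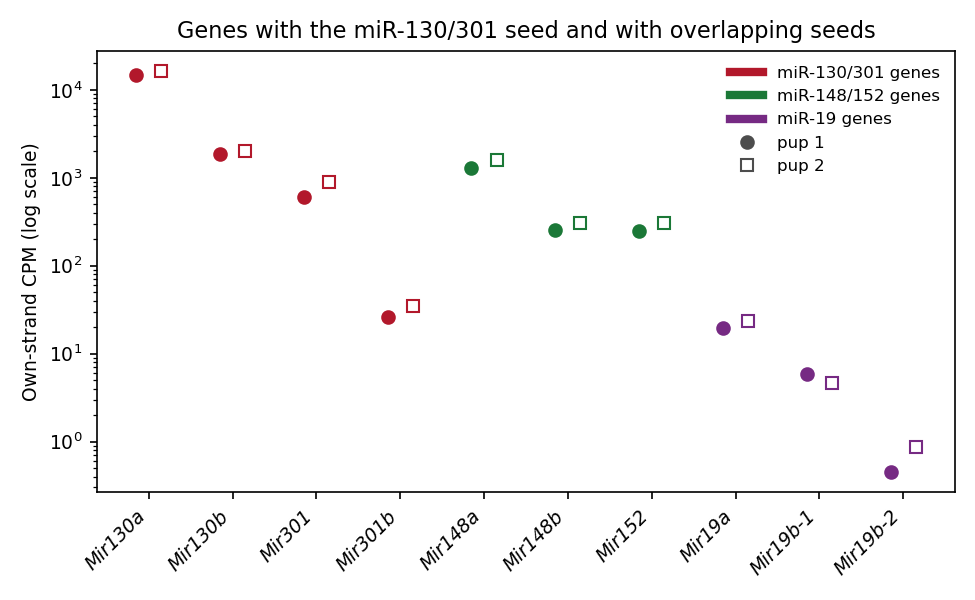
Own-strand CPM (log axis) of the 4 miR-130 and miR-301 genes (red), the 3 miR-148 and miR-152 genes (green) and the 3 miR-19 genes (purple) in pup 1 (filled circles) and pup 2 (open squares). Mir130a is above every other gene shown, Mir148a lies below Mir130b and above Mir301, and the miR-19 genes lie below Mir301b.

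Between the littermates the miR-130 genes were nearly level, while Mir301 differed most within the family. Ratios are pup 1 over pup 2 after TMM scaling, tested over all 305 detected genes by a two-sided exact binomial test with Benjamini-Hochberg adjustment, and calls required both an adjusted p under 0.05 and a difference of 1.5-fold or more. None of the 4 members was called, against 2.95% of all genes tested. At an adjusted p under 0.05 whatever the ratio, 2 of the 4 passed, against 52.1% of all genes, which is near the background. When total counts alone set the scale, all 4 passed the adjusted p, against 146 of the 305 genes, and again none was called. This test compares these libraries and takes no account of the variation among pups.

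Mir301 had a log2 ratio of -0.47 (exact 95% interval -0.55 to -0.40; adjusted p = 2.1e-34, exact binomial test), so it was 1.39-fold higher in pup 2. This was the 27th largest ratio in size of the 305 genes, where the median size was 0.17. Among the 52 genes within 2-fold of its level, Mir301 included, it was the third largest, where the median was 0.15. When edgeR's common dispersion served as the error, the unadjusted p of Mir301 was 0.047 and its adjusted p 0.95 in edgeR's exact test. In that test, 0.328% of all genes and no member passed an adjusted p of 0.05. The dispersion was estimated from these same 2 libraries as 1 group, so it contains the differences it is used to judge. The summed level of the 2 striated muscle markers, Mir206 and Mir208b, differed in the same direction, at 0.0176% of counts in pup 1 and 0.0362% in pup 2, through Mir206 with 435 and 914 counts. The part of Mir206 in the difference of Mir301 was not tested. Other tissue markers differed in either direction, such as Mir194-2 at a log2 ratio of -0.37 and Mir215 at 0.37 (pup 1 over pup 2).

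The log2 ratio of Mir130a was -0.05 (-0.07 to -0.04; adjusted p = 2.4e-09, exact binomial test), a 1.04-fold difference. That of Mir130b was -0.03 (-0.08 to 0.02; adjusted p = 0.30), and that of Mir301b, with few counts, was -0.34 (-0.72 to 0.04; adjusted p = 0.13). All 4 values were below 0, as were those of 160 of the 305 detected genes. The interval of Mir301b includes both 0 and the value of Mir301, so whether it differed as Mir301 did was not detectable at this depth.

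**Figure D5:**
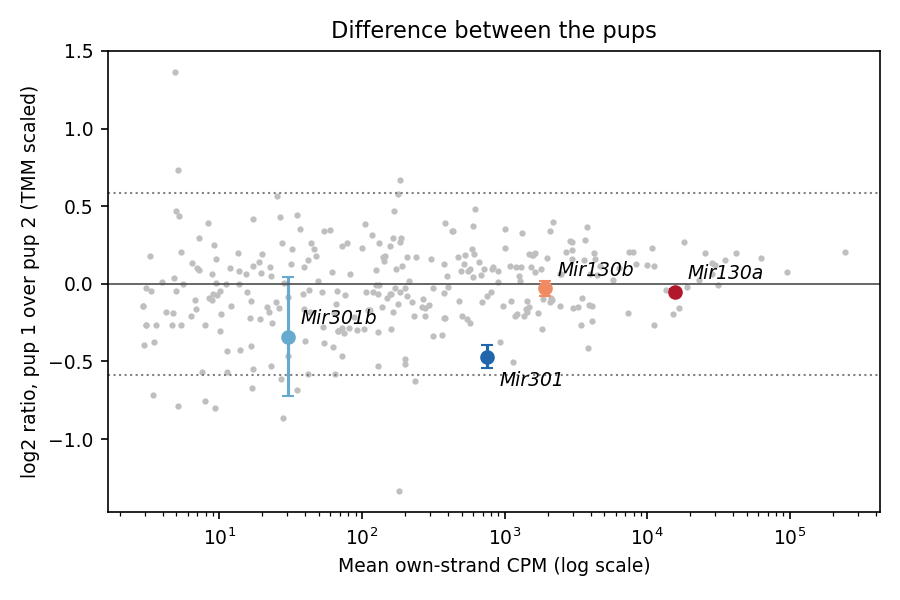
The log2 ratio of pup 1 over pup 2 (TMM scaled) against mean CPM (log axis) for the 305 detected miRNA genes, with the 4 members in colour and their exact 95% intervals for counting error. Dotted lines mark 1.5-fold; Mir301 lies at -0.47, inside the lower line, Mir130a and Mir130b lie near 0, and the interval of Mir301b crosses 0.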

How the data were processed

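The deposited tables hold raw read counts per miRNA gene, in 1 column without regard to strand and 1 for each strand, with no normalization by the authors. Per the files deposited beside them, reads were placed on mm10 and counted over annotation M4. Which aligner and counter were used is not given in the sources used here. Of all reads in pup 1 and pup 2, 8.70% and 8.94% were unmapped, 26.0% and 25.7% mapped to several places, and 1.78% and 1.70% fell outside annotated miRNA genes, and none of these entered the totals. The strand column with the larger total held 97.7% and 97.8% of gene counts and was used. Symbols and positions came from GENCODE M21 (GRCm38), which matched 1894 of 1973 identifiers, and sequences from RefSeq and M21 transcripts. TMM sizes came from edgeR 4.0.16 and alternative size factors from DESeq2 1.42.0 (R 4.3.3). The exact binomial test used Python 3.11.15 and scipy 1.17.1. It was checked on counts simulated with counting noise only and scaled by library totals, a check that does not cover variation among pups. The labels give separate pups. Members and lists were chosen with earlier results of these data known. Named genes are the members, genes with their seed or a seed shifted by 1 base, their rank neighbours, tissue markers and the cluster neighbours of Mir19a. Alternatives covered strand, denominator, scaling, count minimum, error model and each library left out.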

Additional observations from a re-analysis of the deposited data

How the results depend on the processing

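Level and share depend on the denominator. With all reads as denominator the family held 1.14%, and Mir130a stood at 9709, Mir130b at 1201, Mir301 at 468 and Mir301b at 18.9 per 1000000. Without Mir143 in the total, the family held 2.42%, with 20590, 2546, 991 and 40.0 CPM for these genes. Strand and TMM sizes moved no level by more than its SD. With 1 pup left out the share ran from 1.73% to 1.94%. Without the genes that share 20 nt, the log2 ratio over miR-19 was 9.73. Without Mir130a (chosen after seeing the data) the log2 ratio was 0.45 over miR-148 and miR-152 and 6.62 over miR-19. The exact binomial test called 9 genes between the pups, against 16 with total counts alone and 1 with edgeR's common dispersion. In edgeR's exact test 16 had an unadjusted p under 0.05, with a dispersion that contains the difference between these 2 libraries. No member was called under any of the alternatives run, which called from 1 to 16 genes of the 305 to 653 tested. Under total scaling the median gene stood at a log2 ratio of -0.13, against -0.02 under TMM. In the exact binomial test under total scaling, 4 members passed an adjusted p of 0.05, against 146 of all 305 genes. The log2 ratio of Mir301 ran from -0.57 to -0.45 and that of Mir130b from -0.13 to -0.01 over all scalings. No paired analysis was possible because the libraries form 1 group. The ratio between pups has no value with 1 library left out. Depth limits Mir301b most, as its 115 and 121 counts leave its ratio between pups uncertain.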
